A study of Drosophila melanogaster with 12 samples.

Results

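The aminoacyl-tRNA synthetases of the fly were followed in heads of G9a mutants and controls during oxidative stress (OS). Members were taken by gene symbol, as every gene whose FlyBase ID is paired with a three-letter amino acid code followed by RS, with an added m for the mitochondrial form. The name table holds 33 such symbols, and 31 of them have a row among the 15682 genes of the table, 17 for cytosolic and 14 for mitochondrial forms. The form was taken from the symbol alone, so a gene counted as cytosolic may also supply mitochondria. *GluProRS*, a single gene for the glutamyl and prolyl enzymes, counts as 1 cytosolic member. *LeuRS* and *PheRS-m* were not analysed here, and the 2 subunits of the cytosolic phenylalanyl enzyme, whose symbols do not have this form, are given below with the partner proteins. All 31 members passed the minimum mean of 10 normalized counts, and none had fewer than 74 reads in any library.

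The G9a mutants carry the G9aDD1 allele, in which a P-element was excised from the gene of the histone methyltransferase G9a. The controls carry a precise excision of that element in the same genetic background. Males aged 5 to 9 days of both genotypes were frozen at 0, 6 or 12 h after transfer to food containing paraquat at 50 mM, a herbicide that generates reactive oxygen species, and each library was made from 200 sieved heads. Each of the 6 groups had 2 libraries, described by the study as biological duplicates, so that differences are set against the spread between 2 pools of heads per group. No library comes from flies kept off paraquat until the hour of the later samples, so exposure cannot be told apart from time of day or from time on the food.

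Aminoacyl-tRNA synthetases join each amino acid to its tRNA, the step that supplies charged tRNAs to the ribosome. Cytosolic protein synthesis and the small translation system inside mitochondria mostly use separate enzymes, both encoded in the nucleus. In animals, several cytosolic synthetases form a multi-enzyme complex with the scaffold proteins *AIMP1*, *AIMP2* and *AIMP3*. In mammals and yeast, genes of cytosolic synthetases are known targets of the amino acid shortage response, in which phosphorylation of *eIF2alpha* favours translation of the transcription factor ATF4 (GCN4 in yeast, the product of *crc* in the fly).

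The G9a gene itself (FBgn0040372) had 3519 to 3700.2 normalized counts in the 6 libraries labelled G9a mutant, against 2620.4 to 3087 in the 6 labelled control, and the log2 difference at 0 h was 0.29 ± 0.06 (limma adjusted p = 0.00259). A count over the whole gene does not show whether the part removed by the excision is missing, so it does not check the genotype, which is taken from the labels throughout.

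The libraries held 19275805 to 41393992 reads on genes, as recovered from the normalized counts. This range is wider than the range of aligned reads per sample that the study reports, and the reason is not known. Depth went with time, since the 0 h libraries held 32325896 to 41393992 reads, the 6 h libraries 19275805 to 24253605 and the 12 h libraries 21872478 to 24078932. Values below are normalized counts, the reads on a gene divided by 1 size factor per library, and changes are differences of log2(normalized count + 1) ± the standard error of the fit. A gene was called where its fold change was at least 1.5 and its Benjamini-Hochberg adjusted p in limma was at most 0.05 over 10530 genes. In whole heads, more RNA of a gene per cell and more cells that express it cannot be told apart.

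The summed counts of the cytosolic synthetases were higher at 6 and 12 h than at 0 h of OS exposure in both genotypes, and more so in G9a mutants, whereas the summed counts of the mitochondrial synthetases stayed close to those at 0 h. The 17 cytosolic genes summed to 19433 and 19298 normalized counts at 0 h in G9a mutants, to 35427 and 33042 at 6 h and to 65078 and 72664 at 12 h. In controls, these genes summed to 19313 and 18531 normalized counts at 0 h, to 24033 and 24146 at 6 h and to 31263 and 28658 at 12 h. The libraries of the 2 genotypes overlapped at 0 h and lay apart at 6 and 12 h, where every mutant library was above every control library. Relative to 0 h, the mean sum was 3.56 times as large at 12 h in G9a mutants and 1.58 times as large in controls. The 14 mitochondrial genes summed to 7540 and 7308 normalized counts in mutant libraries at 0 h, to 8184 and 8186 at 6 h and to 7677 and 7653 at 12 h. Controls had 7533 and 7428 normalized counts on these 14 genes at 0 h, 7945 and 7954 at 6 h and 7605 and 7545 at 12 h. The mean mitochondrial sum at 6 h was 1.10 times that at 0 h in mutants and 1.06 times in controls. In each genotype, both 6 h libraries lay above both 0 h libraries. The cytosolic sum was thus 8.48 and 9.49 times the mitochondrial sum in mutant libraries at 12 h, against 4.11 and 3.80 times in control libraries at 12 h, and 2.49 to 2.64 times in the 4 libraries at 0 h. Cytosolic synthetases took 0.250% and 0.274% of all reads on genes in mutants at 12 h, and 0.119% and 0.110% in controls at 12 h. These sums were not tested.

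**Figure D1:**
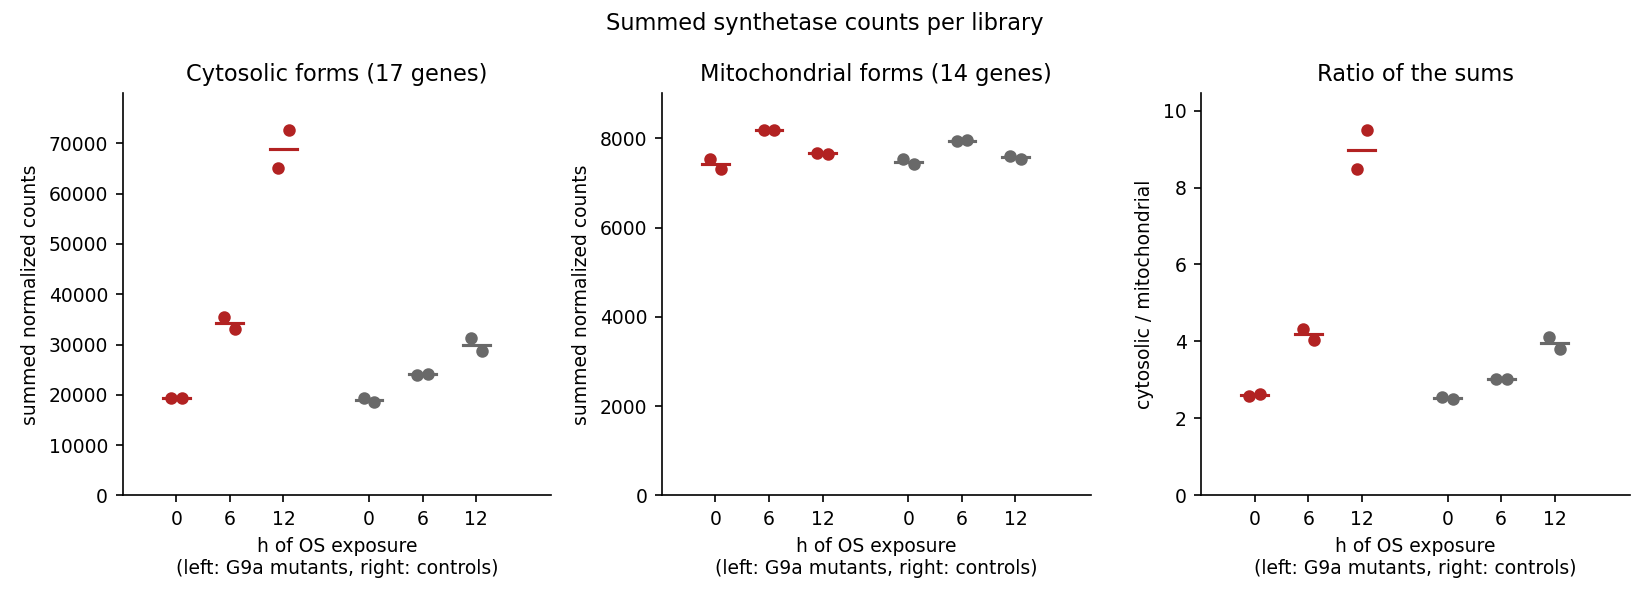
Summed normalized counts of the cytosolic and the mitochondrial synthetase genes, and the ratio of the 2 sums, in each of the 12 libraries. Points are libraries, horizontal lines are group means of 2 libraries, and G9a mutants stand left of controls, each with its 3 times of exposure. The cytosolic sum reached 65078 and 72664 in mutants at 12 h and 31263 and 28658 in controls, while the mitochondrial sum stayed between 7308 and 8186 in all libraries.

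After 12 h of OS exposure, 14 of the 17 cytosolic synthetases were called higher than at 0 h in G9a mutants, where 12.7% of all tested genes were called higher. None was called lower (background of 10.3%). The median log2 change of the 17 genes was 1.26, and that of all tested genes was -0.01. The largest change was that of *AspRS* (FBgn0002069), which charges the aspartate tRNA. This gene had 1129 and 1212 normalized counts at 0 h, 6019 and 5491 at 6 h and 12472 and 14661 at 12 h in G9a mutants, against 1383 and 1326, 2451 and 2314 and 3405 and 3001 at the same times in controls. Mutant libraries at 12 h were the highest of the 12 and lay far above all others, and the mutant libraries at 0 h lay below the control libraries at 0 h. The log2 change at 12 h was 3.53 ± 0.08 in mutants (adjusted p = 9.84e-11). An antisense RNA gene that is not a row of the table, *asRNA:CR45141*, covers 63.9% of the exonic length of *AspRS* in the later annotation, and libraries of this kind do not keep the strand, so reads of the antisense RNA cannot be told apart from reads of *AspRS*.

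*AsnRS* (FBgn0086443), the asparaginyl enzyme, had 1656 and 1523 normalized counts at 0 h, 3996 and 3694 at 6 h and 9778 and 11315 at 12 h in G9a mutants, against 1531 and 1367, 2162 and 2261 and 3782 and 3143 at the same times in controls. Its log2 change at 12 h was 2.73 ± 0.10 in mutants (adjusted p = 8.49e-10). *AlaRS* (FBgn0027094), the alanyl enzyme, had 973 and 916 normalized counts at 0 h, 2461 and 2323 at 6 h and 4977 and 5503 at 12 h in G9a mutants, against 887 and 871, 1338 and 1359 and 1906 and 1624 at the same times in controls. For both genes the genotypes were close to each other at 0 h. Mutant libraries at 6 h and control libraries at 12 h overlapped for *AsnRS*, whereas both mutant libraries at 6 h were above both control libraries at 12 h for *AlaRS*. *AlaRS* changed by 2.47 ± 0.08 on the log2 scale in mutants (adjusted p = 3.51e-10). *GlyRS* (FBgn0027088), the glycyl enzyme, whose human counterpart serves both cytosol and mitochondria from 1 gene, had 947 and 828 normalized counts at 0 h, 1658 and 1639 at 6 h and 4511 and 5143 at 12 h in G9a mutants, against 929 and 805, 1041 and 1096 and 1694 and 1477 at the same times in controls. The mutant libraries at 6 h and the control libraries at 12 h overlapped for this gene, and the mutant libraries at 12 h stood above all others. Its log2 change in mutants was 2.44 ± 0.09 (adjusted p = 1.8e-09).

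*SerRS* (FBgn0031497) charges the serine tRNAs and, in animals, also the selenocysteine tRNA where one is made. It had 661 and 693 normalized counts at 0 h, 1615 and 1432 at 6 h and 2799 and 3214 at 12 h in G9a mutants, against 681 and 650.4, 1008 and 1025 and 1277 and 1209.6 at the same times in controls. *ValRS* (FBgn0027079), the valyl enzyme, had 1456 and 1417 normalized counts at 0 h, 2992 and 2786 at 6 h and 5493 and 6279 at 12 h in G9a mutants, against 1407 and 1313, 1695 and 1694 and 2358 and 2246 at the same times in controls. For these 2 genes every mutant library at 6 h was above every control library at 12 h. The log2 changes at 12 h in mutants were 2.15 ± 0.08 for *SerRS* (adjusted p = 9.48e-10) and 2.03 ± 0.07 for *ValRS* (adjusted p = 5.19e-10). *CG17260*, on the opposite strand, shares 2.20% of the exonic length of *SerRS*. It had 225 and 267 normalized counts at 0 h and 791 and 822 at 12 h in mutants, against 226 and 232 and 340 and 357 in controls.

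**Figure D2:**
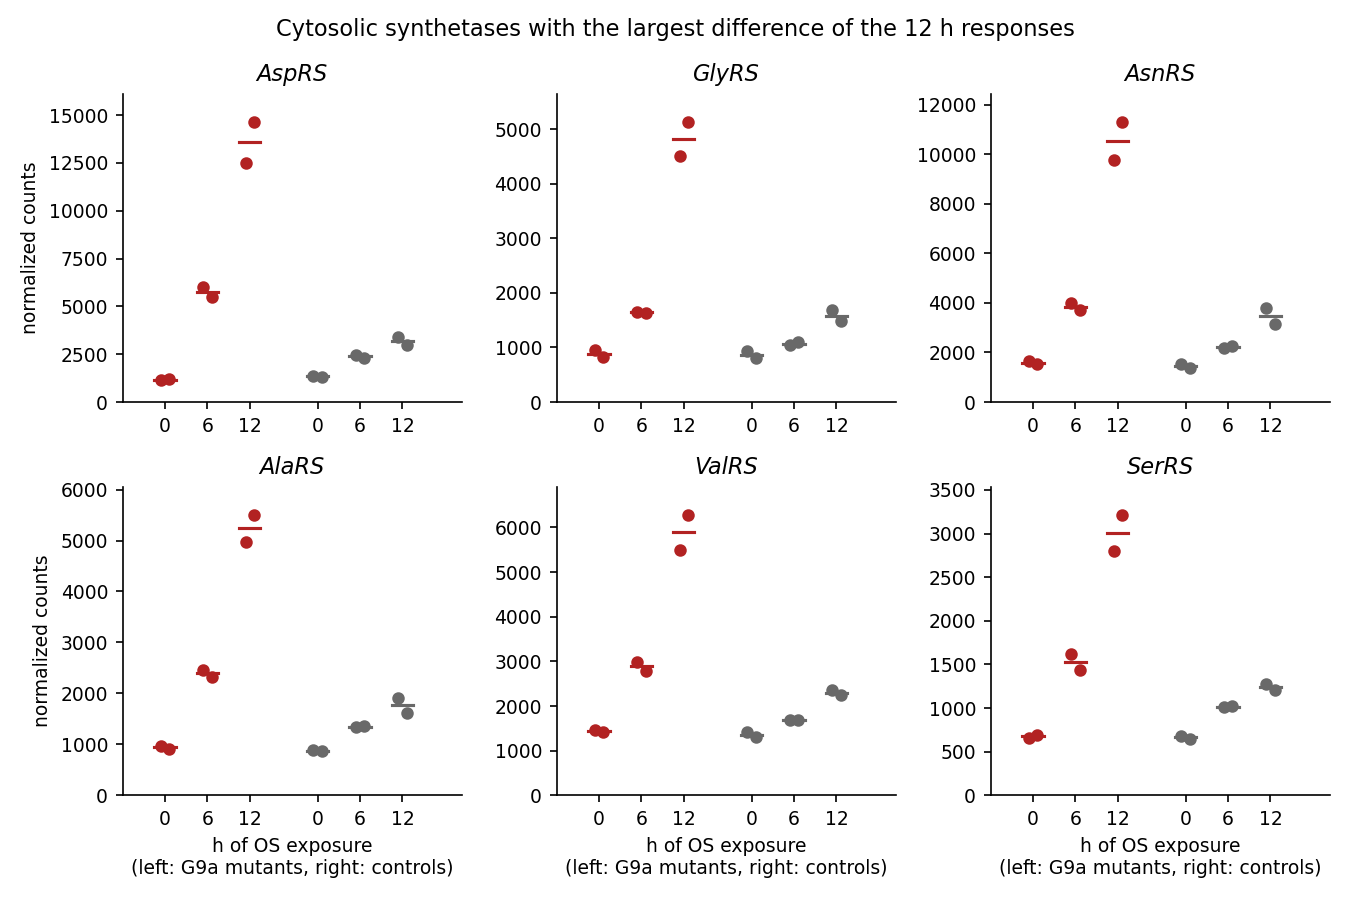
Normalized counts per library of *AspRS*, *GlyRS*, *AsnRS*, *AlaRS*, *ValRS* and *SerRS*, the 6 cytosolic synthetases with the largest difference of the 12 h responses, with G9a mutants left of controls. Points are libraries and lines are means of 2, and each axis starts at 0. The mutant libraries at 12 h stand above all other libraries in each panel, as for *SerRS* with 2799 and 3214 in mutants against 1277 and 1209.6 in controls.

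*GluProRS* (FBgn0005674), the fused glutamyl and prolyl enzyme, had 1471 and 1510.3 normalized counts at 0 h, 2435 and 2267 at 6 h and 5034 and 5337 at 12 h in G9a mutants, against 1442 and 1483, 1988 and 2086 and 2972 and 2631 at the same times in controls. *HisRS* (FBgn0027087), the histidyl enzyme, had 1262 and 1365 normalized counts at 0 h, 1765 and 1578 at 6 h and 3094 and 3350.0 at 12 h in G9a mutants, against 1388 and 1249.8, 1432 and 1445 and 1784 and 1708 at the same times in controls. *IleRS* (FBgn0027086), the isoleucyl enzyme, had 1316 and 1406 normalized counts at 0 h, 1938 and 1807 at 6 h and 3152 and 3392 at 12 h in G9a mutants, against 1226 and 1394, 1622 and 1749 and 2110.4 and 1985 at the same times in controls. In all 3, the 4 libraries at 0 h were close together and the mutant libraries at 12 h were the highest. The log2 changes at 12 h in mutants were 1.80 ± 0.06 for *GluProRS*, 1.29 ± 0.07 for *HisRS* and 1.26 ± 0.07 for *IleRS*, with adjusted p of 8.53e-10, 3.56e-08 and 5.03e-08 in that order. An antisense RNA gene without a row, *asRNA:CR46092*, shares 16.6% of the exonic length of *GluProRS*, and *Bx*, on the same strand and also without a row under its present ID, shares 8.91% of that of *HisRS*.

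*MetRS* (FBgn0034401), the methionyl enzyme, had 853 and 916 normalized counts at 0 h, 1393 and 1255 at 6 h and 1868 and 1934 at 12 h in G9a mutants, against 903 and 880.3, 1032 and 1035 and 1133 and 1036 at the same times in controls. *ThrRS* (FBgn0027081), the threonyl enzyme, had 2505 and 2418 normalized counts at 0 h, 2930.3 and 2744 at 6 h and 4617 and 5094 at 12 h in G9a mutants, against 2303 and 2215, 2469 and 2386 and 2887 and 2657 at the same times in controls. *CysRS* (FBgn0027091), the cysteinyl enzyme, had 537 and 544 normalized counts at 0 h, 626 and 622 at 6 h and 1006 and 992 at 12 h in G9a mutants, against 527 and 487, 526 and 567 and 630.5 and 552 at the same times in controls. Mutant libraries at 12 h were again the highest, while the controls at 12 h exceeded their own 0 h libraries by smaller steps. At 12 h in mutants the log2 changes were 1.10 ± 0.07, 0.98 ± 0.06 and 0.88 ± 0.08 for *MetRS*, *ThrRS* and *CysRS*.

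The remaining 5 cytosolic members changed least. *TyrRS* (log2 change of 0.67 ± 0.07, adjusted p = 4.55e-06) and *GlnRS* (0.63 ± 0.08, adjusted p = 3.42e-05), the tyrosyl and glutaminyl enzymes, were called higher at 12 h in mutants. The call of *GlnRS* was lost with median centring (0.56) and without the second mutant library at 12 h (0.53). *TrpRS*, *LysRS* and *ArgRS*, the tryptophanyl, lysyl and arginyl enzymes, had log2 changes of 0.43, 0.28 and 0.24 with adjusted p of 4.92e-05, 0.00242 and 0.0445, and did not reach the fold threshold. *ArgRS*, with the smallest change of the 17, had 619.9 and 641 normalized counts at 12 h, against 513 and 553 at 0 h, in mutants.

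In controls after 12 h, 8 of the 17 cytosolic synthetases were called higher than at 0 h, where 7.31% of all tested genes were called higher, and their median log2 change was 0.50. The 8 were *AsnRS* (1.25 ± 0.10), *AspRS* (1.24 ± 0.08), *AlaRS* (1.00 ± 0.08), *GluProRS* (0.93 ± 0.06), *SerRS* (0.90 ± 0.08), *GlyRS* (0.87 ± 0.09), *ValRS* (0.76 ± 0.07) and *IleRS* (0.65 ± 0.07), with adjusted p between 9.08e-07 and 4.91e-05. The call of *IleRS* was lost with median centring (0.54) and without the first control library at 0 h (0.55). The other 9 had log2 changes between 0.11 for *TrpRS* and 0.50 for *GlnRS*. Across the 17 genes, the changes at 12 h in the 2 genotypes, which share no library, had Pearson's r of 0.94 and Spearman's rho of 0.91, and all 17 changes were larger in mutants. Genes are not independent replicates, and the correlation was not tested.

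**Figure D3:**
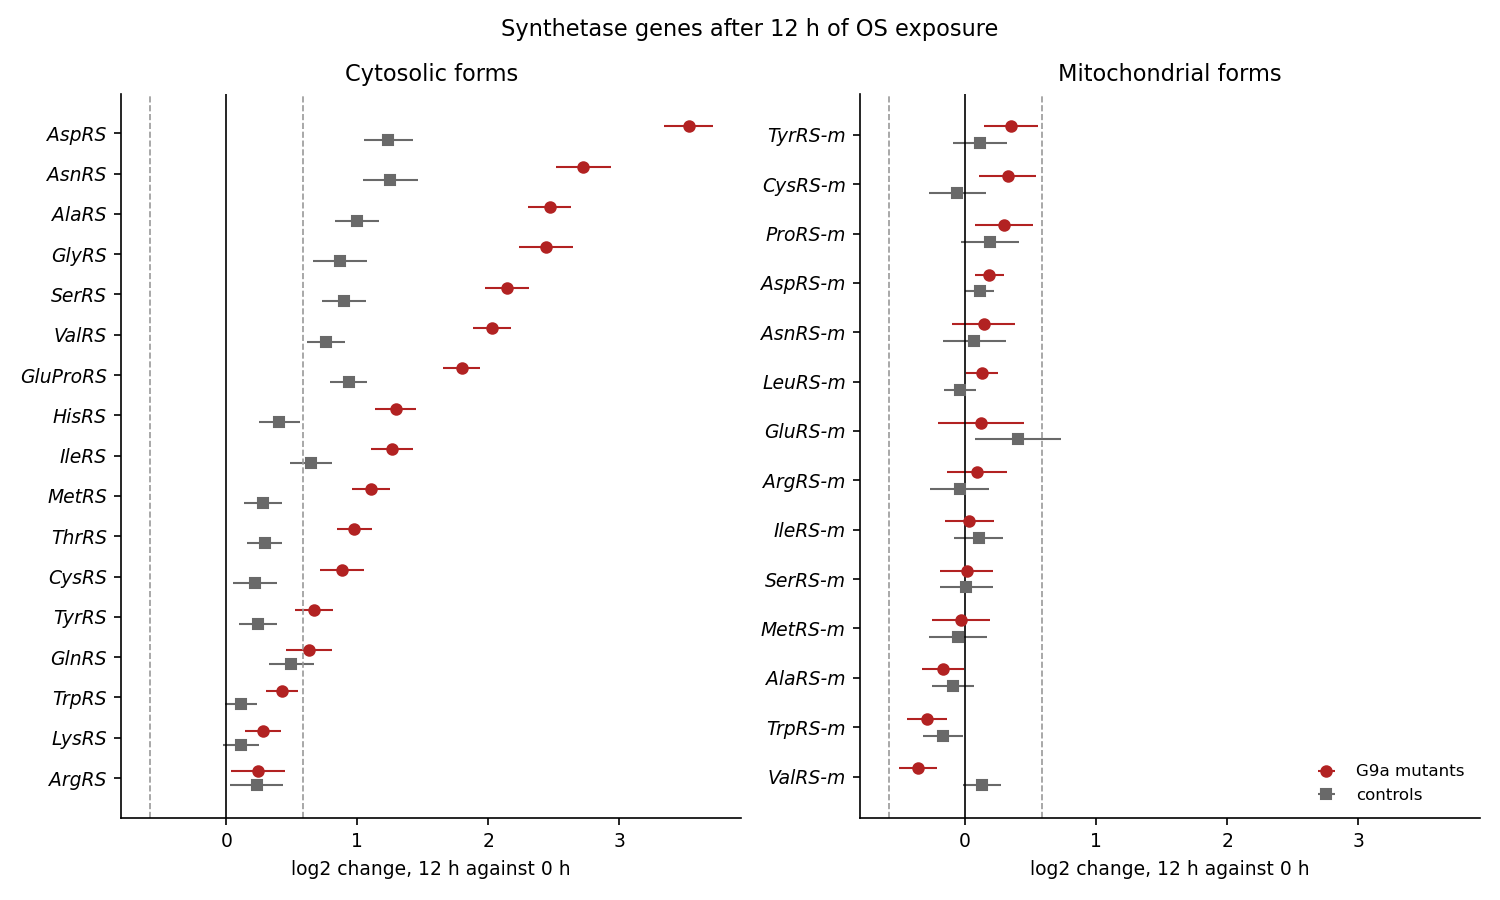
Log2 change at 12 h against 0 h of each cytosolic (left) and mitochondrial (right) synthetase in G9a mutants (circles) and controls (squares). Bars are 95% confidence intervals of the limma fit, dashed lines mark a fold change of 1.5 up and down, and genes are ordered by the change in mutants. Changes of cytosolic forms in mutants run from 0.24 for *ArgRS* to 3.53 for *AspRS*, and those of mitochondrial forms from -0.36 for *ValRS-m* to 0.35 for *TyrRS-m*.

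At 6 h of exposure, 7 of the 17 cytosolic synthetases were called higher than at 0 h in G9a mutants, where 8.05% of all tested genes were called higher. These were *AspRS* (2.30 ± 0.08), *AlaRS* (1.34 ± 0.08), *AsnRS* (1.27 ± 0.10), *SerRS* (1.17 ± 0.08), *ValRS* (1.01 ± 0.07), *GlyRS* (0.90 ± 0.09) and *GluProRS* (0.66 ± 0.06). The median over the 17 was 0.48 at 6 h in mutants. In controls at 6 h, 4 of 17 were called higher, where 5.68% of all tested genes were called higher, and the median was 0.30. The 4 were *AspRS* (0.81 ± 0.08), *AlaRS* (0.62 ± 0.08), *AsnRS* (0.61 ± 0.10) and *SerRS* (0.61 ± 0.08). The last 3 lie just above the fold threshold, and the count in controls was 1 with median centring and 2 without the second control library at 0 h.

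Most cytosolic synthetases responded more strongly in G9a mutants. The difference of the 12 h responses, mutants minus controls, was called above 0 for 12 of the 17 genes, where 7.26% of all tested genes were called above 0, with a median of 0.82. It was 2.29 ± 0.12 for *AspRS* (adjusted p = 1.99e-07), 1.57 ± 0.13 for *GlyRS* (6.23e-06), 1.47 ± 0.14 for *AsnRS* (1.04e-05) and 1.47 ± 0.11 for *AlaRS* (2.16e-06). *ValRS* (1.27 ± 0.09, adjusted p = 2.29e-06) and *SerRS* (1.25 ± 0.11, adjusted p = 6.8e-06) followed. *HisRS*, *GluProRS*, *MetRS*, *ThrRS*, *CysRS* and *IleRS* had smaller differences that were also called, from 0.89 for *HisRS* to 0.62 for *IleRS*, with adjusted p between 2.56e-05 and 0.000889. *CysRS* lost its call without the second control library at 12 h (0.57), and *IleRS* lost its call in 4 of the 12 fits that each left out 1 library, with 0.53 as its lowest value. *TyrRS* (0.43, adjusted p = 0.00458) and *TrpRS* (0.32, 0.0101) were below the fold threshold. For *LysRS*, *GlnRS* and *ArgRS*, the 95% intervals of the difference were -0.03 to 0.36, -0.11 to 0.38 and -0.28 to 0.30.

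The difference of the 6 h responses was called above 0 for 5 of the 17 genes, where 3.5% of all tested genes were called above 0. *AspRS* had the largest, 1.48 ± 0.12 (adjusted p = 1.78e-05), followed by *AlaRS* (0.72 ± 0.11), *ValRS* (0.69 ± 0.09), *AsnRS* (0.66 ± 0.14) and *GlyRS* (0.59 ± 0.13). *GlyRS* lies just above the fold threshold and fell below it under 7 alternatives, among them edgeR on the recovered reads (0.58) and reads thinned to the smallest library (0.53). Without the first control library at 0 h, 3 genes were called at 6 h.

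**Figure D4:**
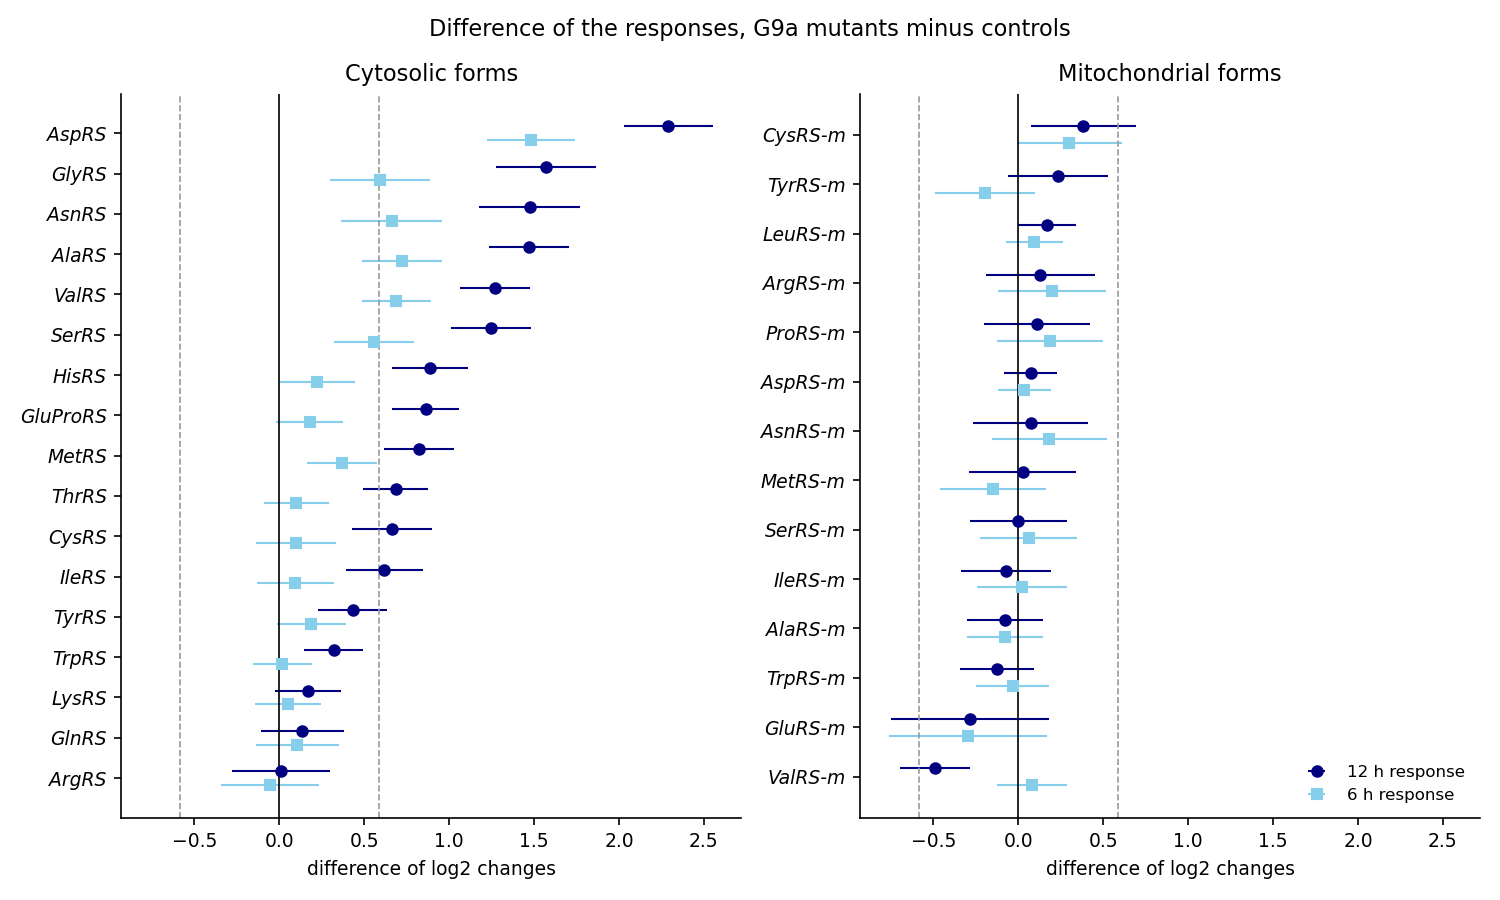
Difference between the genotypes in the log2 change from 0 h, G9a mutants minus controls, at 12 h (circles) and 6 h (squares) for each cytosolic (left) and mitochondrial (right) synthetase. Bars are 95% confidence intervals of the limma fit and dashed lines mark a fold of 1.5 up and down. At 12 h, 12 cytosolic genes lie right of the dashed line at the upper fold, from 0.62 for *IleRS* to 2.29 for *AspRS*, and no mitochondrial gene lies beyond either dashed line.

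Before exposure, no cytosolic synthetase was called between the genotypes. At 0 h the 17 log2 differences between G9a mutants and controls ran from -0.21 for *AspRS* to 0.13 for *AsnRS*, with a median of 0.03. In limma, 1 of the 17 had an unadjusted p under 0.05 and none an adjusted p of at most 0.05, and edgeR and DESeq2 called 0 as well. Of all tested genes, 5.04% were called higher and 5.25% lower in mutants at 0 h. At 6 h, 5 of 17 were called higher in mutants than in controls (background of 6.53%), from 0.63 for *GlyRS* to 1.27 for *AspRS*. At 12 h, 12 of 17 were called higher (background of 9.46%), from 0.68 for *IleRS* to 2.08 for *AspRS*, with a median of 0.81.

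Among the mitochondrial synthetases, no gene was called in either direction at 6 or 12 h against 0 h in either genotype, nor in the difference of the responses. Of all tested genes, 23.0% and 13.2% were called in either direction at 12 and 6 h in G9a mutants, 10.2% and 7.27% at 12 and 6 h in controls, and 15.8% and 8.19% in the difference of the 12 and 6 h responses. At 12 h in G9a mutants, 8 of the 14 had an unadjusted p under 0.05 in limma, 6 an adjusted p of at most 0.05 (4 higher and 2 lower), and edgeR and DESeq2 called 0. In controls at 12 h, 2 had an unadjusted p under 0.05 and 0 were called by edgeR or DESeq2. For the difference of the 12 h responses these numbers were 3 and 0, and for that of the 6 h responses 0 and 0. At 6 h, 5 genes in mutants and 6 in controls had an unadjusted p under 0.05, and edgeR and DESeq2 called 0 in both. The adjusted p in limma was at most 0.05 for 5 in mutants and 3 in controls, all higher than at 0 h. The median log2 change of the 14 genes at 12 h was 0.10 in mutants and 0.04 in controls. The 95% intervals of all 14 changes at 12 h in mutants lay between -0.51 and 0.56, that is, within a fold of 1.5 in either direction.

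*ValRS-m* (FBgn0035942), the mitochondrial valyl enzyme, was the 1 synthetase called between the genotypes before exposure. It had 753 and 727 normalized counts at 0 h, 906 and 889 at 6 h and 596 and 557 at 12 h in G9a mutants, against 394 and 387, 456 and 439 and 441 and 414 at the same times in controls. Both mutant libraries lay above both control libraries at every time, by the widest margin at 6 h. The log2 difference between mutants and controls was 0.92 ± 0.07 at 0 h (adjusted p = 2.29e-06), 1.00 ± 0.07 at 6 h (7.66e-07) and 0.43 ± 0.07 at 12 h (0.000255), the last below the fold threshold. In mutants the gene changed by -0.36 ± 0.07 at 12 h against 0 h (adjusted p = 0.000736), and the difference of the 12 h responses was -0.49 ± 0.09 (adjusted p = 0.00211), both within a fold of 1.5. Its cytosolic counterpart *ValRS* differed by 0.08 between the genotypes at 0 h (adjusted p = 0.426). Of the 14 mitochondrial log2 differences between mutants and controls at 0 h, 2 were above 0, and the median was -0.14. In limma, 1 of the 14 was lower in mutants at 0 h with an adjusted p of at most 0.05, 5 were at 6 h and 4 at 12 h. None of these reached the fold threshold.

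*CysRS-m* (FBgn0033900), the mitochondrial cysteinyl enzyme, had 328 and 351 normalized counts at 0 h, 424 and 480.1 at 6 h and 421 and 429.6 at 12 h in G9a mutants, against 390.2 and 405, 469 and 392 and 397 and 367 at the same times in controls. *GluRS-m* (FBgn0036629), the mitochondrial glutamyl enzyme and the lowest of all members, had 86.8 and 77.0 normalized counts at 0 h, 99.3 and 81.3 at 6 h and 88.7 and 89.0 at 12 h in G9a mutants, against 89.3 and 90.3, 117 and 127 and 110.1 and 129 at the same times in controls. *TyrRS-m* (FBgn0035064), the mitochondrial tyrosyl enzyme, had 298 and 292 normalized counts at 0 h, 322 and 303 at 6 h and 392 and 362 at 12 h in G9a mutants, against 324 and 327, 379 and 411 and 324 and 383 at the same times in controls. The mutant libraries of *CysRS-m* at 0 h were the lowest for that gene, the control libraries of *GluRS-m* at 6 and 12 h lay above all mutant libraries, and the genotypes overlapped at 12 h for *TyrRS-m*. Their differences of the 12 h responses were 0.38 ± 0.14, -0.29 ± 0.21 and 0.23 ± 0.13 (adjusted p = 0.0641, 0.365 and 0.232), and none was called. *CG13016*, on the opposite strand, shares 14.3% of the exonic length of *CysRS-m*.

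*LeuRS-m* (FBgn0027085), the mitochondrial leucyl enzyme, had 903 and 934 normalized counts at 0 h, 986 and 929 at 6 h and 988 and 1022 at 12 h in G9a mutants, against 991 and 959, 959 and 944 and 958 and 937 at the same times in controls. *ArgRS-m* (FBgn0037526), the mitochondrial arginyl enzyme, had 381 and 421 normalized counts at 0 h, 406 and 454 at 6 h and 405 and 449 at 12 h in G9a mutants, against 434 and 392, 404 and 367 and 427 and 376 at the same times in controls. *AspRS-m* (FBgn0051739), the mitochondrial aspartyl enzyme, had 1879 and 1813 normalized counts at 0 h, 2166 and 2064 at 6 h and 2064 and 2129.9 at 12 h in G9a mutants, against 1657 and 1769, 1884 and 1943 and 1834 and 1861 at the same times in controls. The genotypes overlapped at 0 and 12 h for *ArgRS-m*, and the mutant libraries of *LeuRS-m* and *AspRS-m* at 12 h stood above the control libraries at 12 h by less than a fold of 1.5. On the log2 scale that difference was 0.08 ± 0.05 for *LeuRS-m* and 0.18 ± 0.05 for *AspRS-m* (adjusted p = 0.243 and 0.0116). The other 7, *AlaRS-m*, *AsnRS-m*, *IleRS-m*, *MetRS-m*, *ProRS-m*, *SerRS-m* and *TrpRS-m*, had log2 changes at 12 h between -0.29 (*TrpRS-m*) and 0.30 (*ProRS-m*) in mutants and between -0.17 (*TrpRS-m*) and 0.19 (*ProRS-m*) in controls. *TrpRS-m*, the mitochondrial tryptophanyl enzyme, had a log2 difference of -0.40 ± 0.07 between mutants and controls at 12 h (adjusted p = 0.000639), below the fold threshold.

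**Figure D5:**
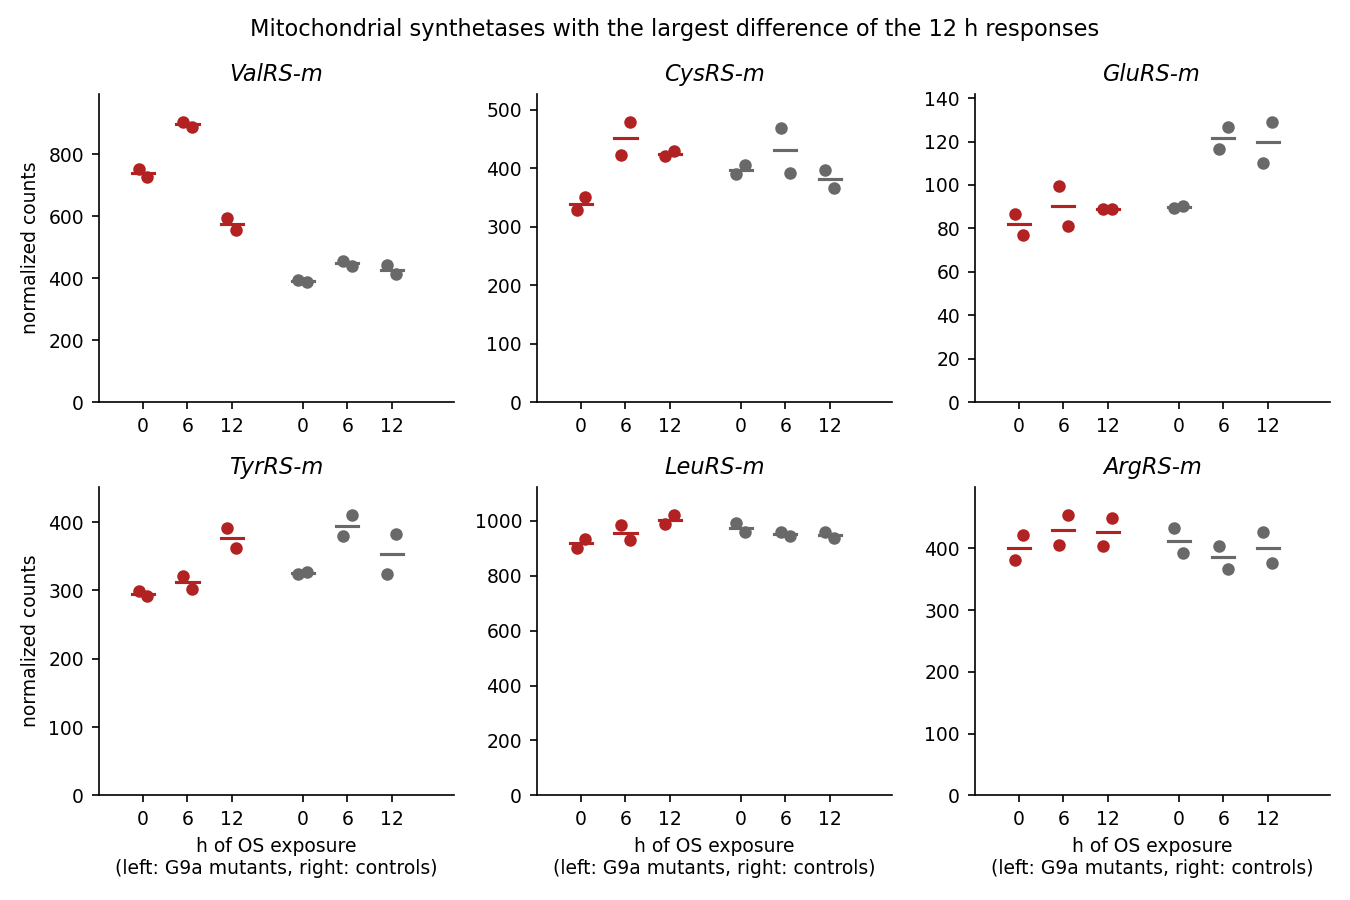
Normalized counts per library of *ValRS-m*, *CysRS-m*, *GluRS-m*, *TyrRS-m*, *LeuRS-m* and *ArgRS-m*, the 6 mitochondrial synthetases with the largest absolute difference of the 12 h responses, with G9a mutants left of controls. Points are libraries and lines are means of 2, and each axis starts at 0. *ValRS-m* stands at 753 and 727 in mutants at 0 h against 394 and 387 in controls.

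The forms can be set side by side for the same amino acid. For 12 cytosolic genes at least 1 mitochondrial partner was measured, which gave 13 pairs because *GluProRS* pairs with both *GluRS-m* and *ProRS-m*. At 12 h the cytosolic log2 change was the larger in 13 of 13 pairs in G9a mutants, by 0.15 to 3.35, and in 13 of 13 pairs in controls, by 0.13 to 1.18. The gap was widest for the aspartyl pair in mutants, with 3.53 for *AspRS* and 0.18 for *AspRS-m*, and narrowest for the arginyl pair, with 0.24 for *ArgRS* and 0.09 for *ArgRS-m*. Per kilobase of coding length, the ratio of *AsnRS* to *AsnRS-m* normalized counts was 5.80 at 0 h, 12.6 at 6 h and 35.1 at 12 h in mutants, against 4.64, 7.16 and 10.6 at these times in controls. For the valyl pair the ratio of *ValRS* to *ValRS-m* per kilobase of coding length was 1.83 at 0 h in mutants, against 3.28 in controls, and 9.65 at 12 h in mutants, against 5.07 in controls. At 6 h in mutants, the cysteinyl pair was the exception among 13, with a larger change of *CysRS-m* (0.41) than of *CysRS* (0.21).

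Per kilobase of coding length, the cytosolic forms lay mostly above the mitochondrial ones, and their order changed with exposure. At 0 h the cytosolic median was 450.5 normalized counts per kilobase in G9a mutants and 429.8 in controls, and the mitochondrial median was 216 in mutants and 233 in controls. *ThrRS* stood highest at 0 h, with 1118 and 1079 per kilobase in mutant libraries and 1028 and 988 in control libraries, and *CysRS* was the lowest cytosolic form, with 243 and 228 as means. At 12 h in mutants, *AspRS* was highest with 7829 and 9203 per kilobase, above *AsnRS* with 5841 and 6759, and both lay above *ThrRS* with 2060.0 and 2273. *ThrRS* did not differ from the next genes in that order beyond their spread, since *GlyRS* had 1965 and 2241 and *SerRS* had 1862 and 2138. In controls at 12 h, *AsnRS* (2259 and 1878) and *AspRS* (2137 and 1884) overlapped at the top. *ArgRS* was the lowest cytosolic form in mutants at 12 h, with a mean of 316 per kilobase. Of the mitochondrial forms, *AspRS-m* was highest (614 per kilobase in mutants and 541 in controls at 12 h) and *GluRS-m* lowest (58.0 in mutants and 78.0 in controls). With exonic in place of coding length, *AspRS* stayed first and *GluRS-m* last at 12 h in mutants, while some neighbours changed places.

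The cytosolic members were further grouped by 3 properties, after their values had been seen and without a test. The first 2 played no part in the choice of members, and the third was read from the symbols used for that choice. Synthetases fall into 2 structural classes with unrelated catalytic folds. Class II held the larger changes. The 8 class II genes (*AlaRS*, *AsnRS*, *AspRS*, *GlyRS*, *HisRS*, *LysRS*, *SerRS* and *ThrRS*) had a median log2 change of 2.29 at 12 h in mutants, with 7 of 8 called, and of 0.89 in controls, with 5 of 8 called. The 8 class I genes (*ArgRS*, *CysRS*, *GlnRS*, *IleRS*, *MetRS*, *TrpRS*, *TyrRS* and *ValRS*) had a median of 0.78 in mutants, with 6 of 8 called, and of 0.26 in controls, with 2 of 8 called. Of all tested genes, 12.7% were called higher at 12 h in mutants and 7.31% in controls. The classes overlapped, since the class II gene *LysRS* changed by 0.28 in mutants and the class I gene *ValRS* by 2.03. The 7 genes whose human counterparts sit in the multi-enzyme complex (*ArgRS*, *AspRS*, *GlnRS*, *GluProRS*, *IleRS*, *LysRS* and *MetRS*) covered the whole range of changes in mutants, from 0.24 to 3.53, with a median of 1.10, against 1.66 for the other 10. The 5 genes with no mitochondrial symbol in the name table (*GlnRS*, *GlyRS*, *HisRS*, *LysRS* and *ThrRS*) had a median of 0.98, against 1.53 for the 12 with one.

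Of a list of 11 genes named here for the amino acid shortage response, 9 were tested, since *AsnS* and *trib* had no matched row. In G9a mutants at 12 h, 6 of the 9 were called higher and 0 lower, and *Gcn2* and *crc* were not among the 6. Of all tested genes, 12.7% were called higher and 10.3% lower. The median log2 change of the 9 was 0.60. The list also holds genes with roles outside that response, such as *PEK* and *Sesn*, so the count does not measure the response. In controls at 12 h, 2 of 9 were called (7.31% of all tested genes were called higher). The count in mutants was 4 of 9 without the second mutant library at 12 h, where *PPP1R15* had 0.52 and *eIF2gamma* 0.54, and also 4 of 9 with median centring (0.53 and 0.52 in that order). *Thor*, the fly 4E-BP that holds back cap-dependent translation, had 2045 and 2285 normalized counts at 0 h, 11712 and 11193 at 6 h and 25531 and 26307 at 12 h in G9a mutants, against 2490.2 and 2852, 5298 and 4776 and 7954 and 7782 at the same times in controls. Mutant libraries were below the controls at 0 h and above them at 6 and 12 h, and the difference of the 12 h responses was 2.02 ± 0.10 (adjusted p = 1.99e-07). *eIF2beta*, a subunit of the initiation factor that carries the initiator tRNA, had 1347 and 1435 normalized counts at 0 h, 4557 and 4126 at 6 h and 7400.3 and 9059 at 12 h in G9a mutants, against 1296 and 1278, 2111 and 1958 and 3054 and 2836 at the same times in controls. Its difference of the 12 h responses was 1.36 ± 0.12 (adjusted p = 9.16e-06). The difference was also called for *PEK* (0.96 ± 0.09), a kinase of *eIF2alpha* in the endoplasmic reticulum, *Sesn* (0.95 ± 0.07), the fly sestrin, which restrains TOR signalling, and *PPP1R15* (0.60 ± 0.07), which directs a phosphatase to *eIF2alpha*. *PPP1R15* lost this call without the second mutant library at 12 h (0.52) or at 0 h (0.58). *eIF2gamma*, a further subunit of the factor, was called at 12 h in mutants (0.60 ± 0.07). *crc*, the fly ATF4, had log2 changes of 0.09 in mutants and 0.24 in controls at 12 h, and *Gcn2*, the kinase that senses uncharged tRNA, of 0.52 and 0.20 in that order. Neither was called.

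Among 6 subunits and partners of synthetases, *AIMP2* (0.91 ± 0.07) and *Slimp* (0.76 ± 0.12), a mitochondrial relative of the seryl enzyme, were called higher at 12 h in mutants (background of 12.7%). None was called in controls at 12 h by limma, edgeR or DESeq2, where limma called 10.2% of all tested genes in either direction. In limma, 4 of the 6 had an unadjusted p under 0.05 in controls at 12 h. The calls in the 2 genotypes were not compared by a test. *AIMP2*, a scaffold of the multi-enzyme complex, had 1431 and 1549 normalized counts in mutants at 12 h, against 834 and 844 in controls, while *AIMP1* and *AIMP3* had log2 changes of 0.09 and 0.08 in mutants. The subunits of the cytosolic phenylalanyl enzyme changed by 0.42 (*alpha-PheRS*, adjusted p = 0.000212) and -0.12 (*beta-PheRS*, 0.161) in mutants at 12 h, both below the fold threshold. For none of the 6 was the difference of the 12 h responses called in limma, where 15.8% of all tested genes were called in either direction. *AIMP2* had 0.55 ± 0.09 (adjusted p = 0.000992).

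At 12 h in mutants, where 23.0% of all tested genes were called in either direction, few genes of the other listed parts of the translation machinery were called. Cytosolic ribosomal proteins and initiation factors other than *eIF2* subunits were not on these lists. In these parts, 0 of 5 tested cytosolic elongation factors, 0 of 8 mitochondrial translation factors and 0 of 2 amidotransferase subunits were called in limma, with an unadjusted p under 0.05 for 2, 3 and 0 of them, and edgeR and DESeq2 called 0 in each. Of 70 tested mitochondrial ribosomal protein genes, 1 was called higher (*mRpL39*, 0.59 ± 0.10) and 1 lower (*mRpS33*, -0.62 ± 0.08) in limma, while edgeR and DESeq2 called 1 of the 70. Neither was called without the second mutant library at 12 h (0.52 for *mRpL39* and -0.54 for *mRpS33*). *eEF1beta*, a guanine exchange factor for elongation factor 1, was called higher in mutants than in controls at all 3 times, with log2 differences of 0.67 at 0 h, 0.74 at 6 h and 0.67 at 12 h.

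Marker genes of some head tissues also differed between the groups, at 12 h and in part at 0 h. The 4 measured fat body genes summed to 32708 to 35018 normalized counts in mutants at 12 h, against 77290 to 79699 in controls at 12 h, and to 82339 to 101447 in mutants at 0 h, against 108449 to 112829 in controls at 0 h, with Lsp2 and apolpp below and Lpin and bmm above their levels at 0 h in mutants. The 6 antennal genes summed to 7269 to 7336 normalized counts in mutants at 12 h, against 15884 to 16078 in controls at 12 h, and lay in the other order at 0 h, with 19556 to 20373 in mutants, against 10506 to 11966 in controls. The 3 measured muscle genes summed to 26474 to 27808 in mutants at 12 h, against 46775 to 50188 in controls. They were apart at 0 h too, with 43325 to 44222 in mutants, against 63612 to 63890 in controls. Of these, *Mhc* and *Act88F* were lower at 12 h than at 0 h in mutants, while *up* overlapped between these times. The 4 glial genes summed to 25522 to 30048 in mutants at 12 h, against 33185 to 35510 in controls. At 0 h they summed to 28732 to 32191 in mutants, against 26435 to 27360 in controls. The glial genes did not move together in mutants. *nrv2* had 3996 and 4279 normalized counts at 12 h, against 8999 and 9689 at 0 h. *repo* was also lower at 12 h, whereas *alrm* and *Gs2*, the largest part of the sum, overlapped between these times. The 4 measured photoreceptor genes summed to 1336718 to 1388030 in mutants at 12 h, against 1208062 to 1224085 in controls. At 0 h they summed to 1411354 to 1452057 in mutants, against 1030495 to 1072129 in controls. From 0 h to 12 h in mutants, *ninaE* was lower and *trp* higher, while *ninaC* and *norpA* overlapped. The 5 neuronal genes summed to 147536 to 149761 in mutants at 12 h, against 151968 to 157903 in controls, and the genotypes overlapped at 0 h. The part of these shifts in the synthetase changes was not tested. Depth also went with time, and after the reads had been thinned to the smallest library, 67 of the 69 calls of members over the 9 comparisons held. Of the markers of other body parts, those of gut and accessory gland stayed low in all 12 libraries, with at most 14.4 normalized counts summed over 6 gut proteases and at most 20.1 over 5 accessory gland genes. The 8 testis genes summed to 8858 to 13713, nearly all of it from *bol*, and *Mst84Da* and *Mst84Db* were listed at 0.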

How the data were processed

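RNA from 12 pools of 200 male fly heads was sequenced as unstranded, single-end libraries. The authors used BWA to align reads to BDGP 5, HTSeq to count them over genes and DESeq to scale each library by a size factor, and the deposited values are these normalized counts (signal). The authors' tables of their own comparisons (mean counts, fold changes and p-values) were not used. All 188184 values, 100.0%, were whole multiples of 1 read within 0.01 reads, so reads were recovered.

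Symbols came from a name table that matched 15002 of 15682 IDs, and lengths and overlaps from Ensembl release 115 on BDGP 6, a later build, so no coordinates are given. Members and lists were chosen with earlier results of these data known. Every member is named. Values per library are given for the 6 members of each form with the largest difference of the 12 h responses, for members called in a difference of responses, between genotypes at 0 h or in controls at 12 h, and for the highest and lowest per kilobase. Sequences were not analysed here.

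Log2(normalized count + 1) of 10530 genes with a mean of at least 10 entered a limma fit (version 3.58.1 under R 4.3.3, eBayes with trend), with 1 mean for each of the 6 groups, no block and 6 residual degrees of freedom. Tests are two-sided and adjusted by Benjamini-Hochberg. An exact permutation test of 2 against 2 libraries cannot give a p below 0.333 and was not used. As alternatives, the pseudocount was set to 0.5 or 5, the minimum mean to 50 or none, and the following were tried: TMM scaling, median centring, only the libraries compared, the recovered reads in the quasi-likelihood test of edgeR 4.0.16 or in DESeq2 1.42.0, a block for the replicate number, thinned reads, and each library left out, in which case a lone library is taken to vary like the others. For 12 h against 0 h in mutants, limma called 2424 genes, edgeR 2461 and DESeq2 2343. The steps were tested on simulated data.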

Additional observations from a re-analysis of the deposited data

Results flagged for a closer look

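The response to OS exposure differed between G9a mutants and controls by the test of the difference itself, in the limma fit over all genes, for 12 cytosolic synthetases at 12 h and for 5 of them at 6 h. At 12 h the difference of the log2 changes, mutants minus controls, was 2.29 for *AspRS*, 1.57 for *GlyRS*, 1.47 for *AsnRS*, 1.47 for *AlaRS*, 1.27 for *ValRS* and 1.25 for *SerRS*. It was 0.89 for *HisRS*, 0.86 for *GluProRS*, 0.82 for *MetRS*, 0.68 for *ThrRS*, 0.66 for *CysRS* and 0.62 for *IleRS*. At 6 h the difference was 1.48 for *AspRS*, 0.72 for *AlaRS*, 0.69 for *ValRS*, 0.66 for *AsnRS* and 0.59 for *GlyRS*. With 2 libraries in each group, single outlying libraries were not looked for.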

How the results depend on the processing

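Over the 9 comparisons, 69 calls of synthetases were made, and each was refitted under 24 alternatives. No alternative reversed a direction. All 69 calls held with either other pseudocount, either other minimum, only the libraries compared and DESeq2, 68 with TMM scaling and with edgeR, 67 with thinned reads and 64 with median centring, which moved the median of all genes by at most 0.10 on the log2 scale. With 1 library left out, 66 to 69 held.

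The count of cytosolic genes called in controls at 6 h was 1 with median centring, in place of 4, and 2 to 4 with each library left out. That for the difference of the 6 h responses was 3 to 6, in place of 5, and that for the difference of the 12 h responses 10 to 12, in place of 12. The related genes called in controls at 6 h were 1 with median centring, in place of 2. No mitochondrial synthetase besides *ValRS-m* was called under any of these alternatives. The causes were not tested.

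Replicate numbers were shared between groups, but nothing states that they mark a pair. The deviations of same-numbered libraries correlated between -0.57 and 0.45, with the control 6 h libraries negative against every other group. With the number as a replicate block, 69 of 69 calls were kept and 14 cytosolic genes were called at 12 h in mutants, and crossing the numbers of the control 6 h libraries, chosen after seeing the data, changed no call. Each value rests on 2 pools of heads per group, and a difference of less than 1.5-fold was not called whatever its error.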
